A study of Mus musculus with 36 samples.

Results

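Macrophages of the peritoneal cavity were compared with monocytes of blood and spleen in Apoe knockout mice kept on chow diet. The members are the 4 peritoneal and the 4 monocyte libraries labelled as baseline, 8 of the 36 libraries of the series, chosen by these labels alone. The series also holds aortic macrophages, and it holds all 3 populations after 1 month (early stage) and 6 months (advanced stage) of high cholesterol diet, with 4 libraries a group. It asks how monocytes and macrophages of the lesion and of the rest of the body regulate their genes as atheroma forms. Both baseline groups carry the Apoe knockout and eat chow, so the comparison is between cell populations and not between genotypes or diets. Monocytes were sorted by flow cytometry from blood and spleen together after lysis of red cells, and macrophages were sorted from lavage fluid without digestion. The gates, and the age, sex and strain of the mice, are not given in the sources used here. Whether each library is a mouse of its own is not stated in the labels, and the p-values measure only the spread between these libraries.

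Monocytes leave the bone marrow, circulate, and enter tissues. Classical monocytes (Ly6C high) follow the chemokine receptor CCR2, and nonclassical monocytes (Ly6C low), which depend on NR4A1, patrol the vessel wall through CX3CR1 and the integrin LFA-1. Most macrophages of the undisturbed mouse peritoneum are large peritoneal macrophages, a resident, self-maintaining population whose identity depends on the transcription factor GATA6, induced there by retinoic acid. A smaller population of MHC class II-rich macrophages, replenished from monocytes, shares the cavity with them. In bulk RNA, fewer cells of a type and less RNA per cell cannot be told apart.

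The 8 libraries were of like depth. Totals were 9.11 to 14.77 M counts in monocytes and 9.25 to 14.3 M in the peritoneum (means 11.6 ± 2.46 and 11.4 ± 2.21 M, SD, n = 4 each; two-sided exact permutation p = 0.857, where 0.0286 is the smallest that 4 against 4 can give). The ribosomal RNA precursor Rn45s took 6.80 to 11.04% of the counts in monocytes and 9.40 to 17.5% in the peritoneum (exact permutation p = 0.2), with peritoneal library 4 the highest. Spearman correlations over genes were 0.963 to 0.982 within monocytes, 0.974 to 0.985 within the peritoneum and 0.878 to 0.902 between the groups. Library 4 of each group had the lowest correlations with its own group, and the counts below were repeated without it. Apoe, whose deleted part the labels do not give, was counted at 11.6, 6.88, 11.7 and 6.81 CPM in monocytes and 6.66, 5.79, 8.01 and 7.65 CPM in peritoneal macrophages, so its gene-level count is no check of the knockout. CPM are counts per M counts of the library total after TMM scaling, and the 4 values of a group are given in the order of libraries 1 to 4 throughout.

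Gata6, Timd4 and Icam2 were higher in every peritoneal library and Ly6c2, Ccr2 and Cx3cr1 in every monocyte library, while Csf1r overlapped and Fcgr1, Lyz1 and Fabp4 went against their lists, as given below. Both sorts also held transcripts of other cells. Summed over 8 neutrophil markers the libraries had 223 to 656 CPM in monocytes and 1.35 to 5.09 CPM in peritoneal macrophages, and over 6 erythroid markers 30.3 to 285 CPM in monocytes and 0.0796 to 0.347 CPM in peritoneal macrophages. Neutrophil markers were lower in the peritoneum in 8 of 8 tests, against 29.1% of all genes tested. Of the 6 erythroid markers 4, the globin Hbb-bs among them, were at 0 in all 4 peritoneal libraries. Platelet markers (7 genes) summed to 19.2 to 66.1 CPM in monocytes and 0.239 to 1.60 CPM in peritoneal macrophages, T cell markers (8 genes) to 22.5 to 52.4 CPM in monocytes and 3.50 to 13.5 CPM in peritoneal macrophages, NK cell markers (7 genes) to 13.3 to 39.8 CPM in monocytes and 0.319 to 1.85 CPM in peritoneal macrophages, and dendritic cell markers (8 genes) to 84.7 to 141 CPM in monocytes and 9.32 to 24.9 CPM in peritoneal macrophages. The 6 markers of red pulp macrophages of the spleen summed to 223 to 404 CPM in monocytes and 92.3 to 165 CPM in peritoneal macrophages. Of these, 4 were lower in the peritoneum (Treml4, Spic, Vcam1 and the iron exporter gene Slc40a1), Cd163 was higher and the heme oxygenase gene Hmox1 overlapped and did not pass (log2 fold change -0.15 ± 0.17). The 7 myeloid progenitor markers summed to 11.9 to 38.3 CPM in monocytes and 62.8 to 103 CPM in peritoneal macrophages, and in the peritoneum Prtn3, a protease gene, gave 56.1 to 103 CPM of this, while Mpo had 0 counts there. In the peritoneum the 8 mast cell and basophil markers summed to 54.0, 49.4, 30.7 and 0.398 CPM, high in libraries 1 to 3 and near 0 in library 4. The 8 B cell markers overlapped between the groups at 15.0 to 59.3 CPM in monocytes and 3.27 to 58.9 CPM in peritoneal macrophages, and 0 of 8 passed edgeR's test (0 also in DESeq2 and limma-voom, and 0 at an unadjusted p under 0.05). With the replicate number as a block 2 B cell markers were called higher and 1 lower, and without library 4 of both groups 3 higher and 1 lower. Mesothelial and fibroblast markers stayed at or under 0.614 CPM in sum in every library. The part of these cells in the results below was not tested, and not every gene below that they also express is marked.

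**Figure D1:**
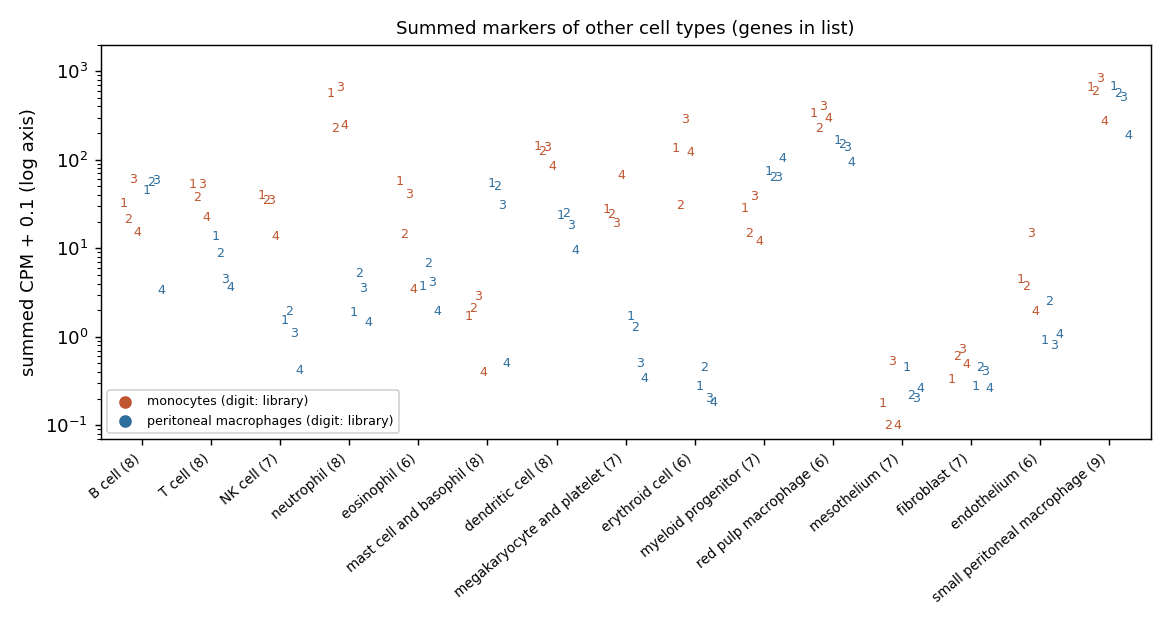
Summed CPM of marker genes in 15 lists of other cells (log axis, 0.1 added, number of genes in brackets). A digit stands for each baseline library, in 1 colour for monocytes and another for peritoneal macrophages. Neutrophil, erythroid, platelet and NK cell markers were higher in all 4 monocyte libraries than in any peritoneal library, and mast cell markers were high in peritoneal libraries 1 to 3.

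Most measured genes differed between the populations. A gene was called at a Benjamini-Hochberg adjusted p under 0.05 in edgeR's quasi-likelihood test, and every adjusted p below comes from that test over all 11430 genes tested. By this rule 6770 of 11430 genes (59.2%) were called, 3448 higher in peritoneal macrophages (30.2%) and 3322 lower (29.1%). Because so many passed, a second rule asked for a difference of more than 2-fold (edgeR's glmTreat). It called 2294 genes (20.1%), 1283 higher (11.2%) and 1011 lower (8.85%). The 2 groups of libraries did not overlap for 6370 genes (55.7%). The median log2 fold change over all genes was 0.02. Counts of list members called, above and below, stand against these shares of all genes, 30.2% higher and 29.1% lower. Those by more than 2-fold stand against 11.2% and 8.85%. The lists were chosen with earlier results of these data known, so their counts are descriptions and no independent test. Log2 fold changes are given with their standard error, and positive values mean higher in peritoneal macrophages. Without library 4 of both groups 7241 genes were called, 2478 of them by the 2-fold rule.

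**Figure D2:**
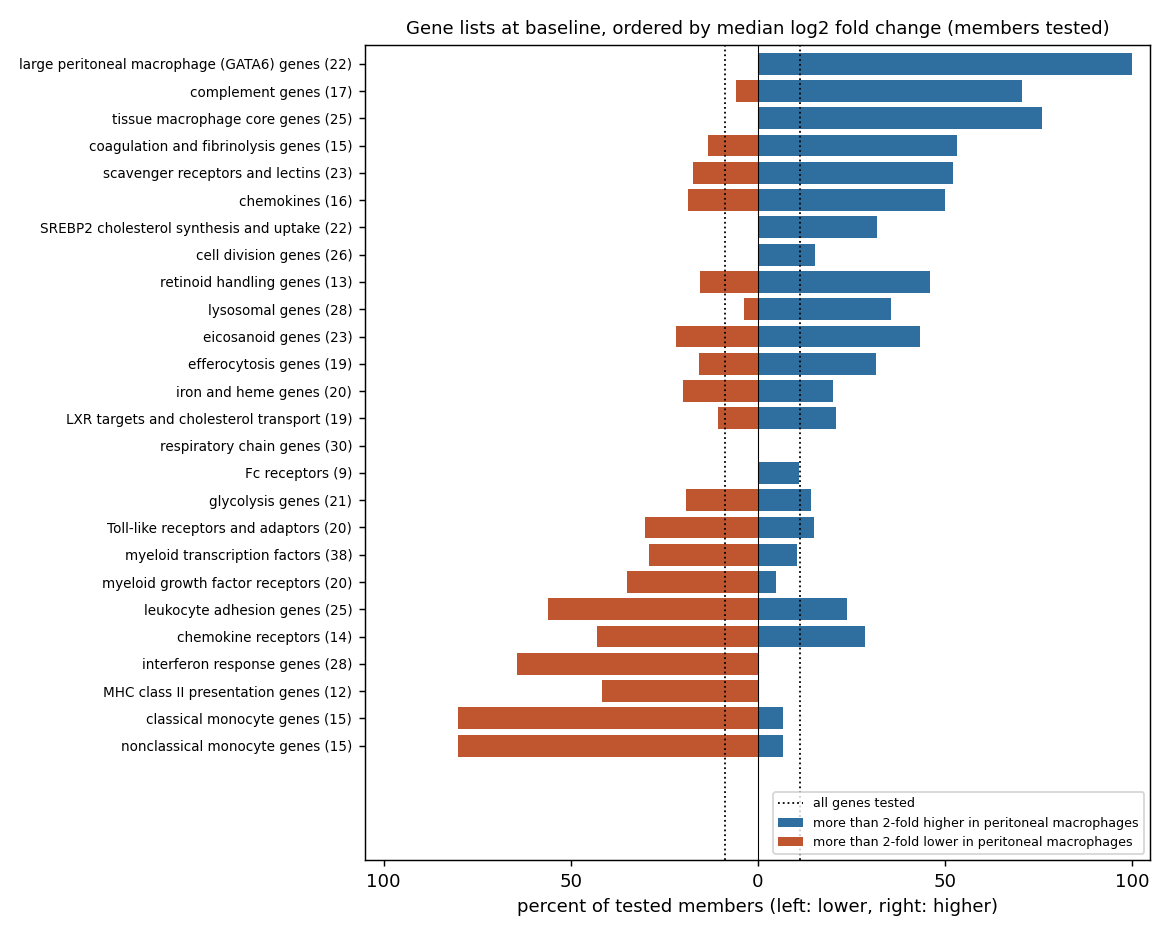
Share of the tested members of 26 gene lists that were more than 2-fold higher (right) or lower (left) in peritoneal macrophages, ordered by the list's median log2 fold change, with the number of members tested in brackets. Dotted lines mark the share over all 11430 genes, 11.2% higher and 8.85% lower. The GATA6 list reaches 100% on the right and the monocyte lists 80% on the left. All lists were chosen with earlier results of these data known.

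Genes of large peritoneal macrophages separated the populations completely. All 22 listed genes were called higher (background 30.2%), all 22 by more than 2-fold (background 11.2%), and for each of them every peritoneal library lay above every monocyte library (background 28.4%). Their median log2 fold change was 8.96. Because the list was chosen with earlier results of these data known, its counts are no independent test of identity. Gata6, the factor that defines these cells, had no count in any monocyte library and 176, 168, 174 and 207 CPM in the peritoneal ones. With a floor of 3 counts summed over the group at 0, it was at least 3026-fold higher. Prg4, which encodes the lubricant proteoglycan 4 of joints and serous cavities, measured 4.31, 0.698, 0.0614 and 2.53 CPM in monocytes and 9946, 12041, 9712 and 16654 CPM in peritoneal macrophages. Its values in peritoneal library 4 and in monocyte libraries 1 and 4 were the high ones of their groups, and the groups stayed far apart (log2 fold change 12.66 ± 0.69, and 13.58 without monocyte library 1, adjusted p = 8.45e-08). Tgfb2, a transforming growth factor ligand that large peritoneal macrophages secrete, was counted at 1.31, 0.399, 0 and 0.0972 CPM and 775, 839, 755 and 856 CPM in the same order. Monocyte library 1 alone held most of the monocyte signal (log2 fold change 10.79 ± 0.44, and 12.40 without monocyte library 1, adjusted p = 1.05e-08).

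Surface molecules of this population followed. Selp, better known as the P-selectin of platelets and endothelium (chromosome 1, 164115264 to 164150026, RefSeq annotation of GRCm38.p6), had 0.923, 0.0997, 0.492 and 0.292 CPM in monocytes and 976, 1116, 975 and 1001 CPM in the peritoneum (log2 fold change 11.01 ± 0.26, adjusted p = 3.87e-10). Timd4, a receptor for phosphatidylserine on dying cells, had 2.39, 0.598, 0.737 and 0.389 CPM and 612, 651, 669 and 725 CPM, again with monocyte library 1 the highest of its group (log2 fold change 9.27 ± 0.33, and 10.09 without monocyte library 1, adjusted p = 4.61e-09). Icam2, an adhesion molecule used to gate large peritoneal macrophages, had 13.6, 11.6, 12.8 and 8.36 CPM and 355, 349, 366 and 398 CPM, so it was present in every monocyte library at a lower level (log2 fold change 4.98 ± 0.15, adjusted p = 1.25e-09). The latent TGF-beta binding protein gene Ltbp1 and the fibronectin gene Fn1 make matrix proteins. Ltbp1 averaged 2.31 ± 1.60 CPM in monocytes and 2507 ± 233 CPM in peritoneal macrophages (SD, n = 4), and Fn1 averaged 5139 ± 1823 and 60062 ± 4746 CPM. Fn1 was thus 11.7-fold higher in a population whose counterpart also expressed it. The smallest difference in the list was that of F10, the coagulation factor X gene (log2 fold change 1.83 ± 0.22), and its fitted values reached 14.03 for Gata6, a fit against 0 counts that sets no bound. Aspa, a deacetylase gene, and Garnl3, a GTPase regulator gene, were near 0 in monocytes (log2 fold changes 9.97 ± 0.47, and 13.02 without monocyte library 1 for Aspa and 10.16 ± 0.52, and 11.57 without monocyte library 3 for Garnl3).

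Among the 10 genes with the largest differences upward, 7 had no count in monocytes. Besides Gata6 these were Retnla (RELM-alpha, a product of alternatively activated macrophages) with 232, 213, 139 and 21.3 CPM in the peritoneum, the Wnt ligand gene Wnt2 with 145, 162, 153 and 135 CPM, Dpysl3 with 73.0, 66.0, 66.3 and 93.5 CPM, the Lutheran blood group adhesion gene Bcam with 89.6, 76.0, 90.2 and 38.2 CPM, the potassium channel gene Kcnn3 with 52.6, 55.7, 46.6 and 94.1 CPM and Prtg with 53.3, 55.2, 47.2 and 83.9 CPM. Retnla was high in peritoneal libraries 1 to 3 and low in library 4. It is also expressed by small peritoneal macrophages and dendritic cells of the cavity. Their 9 listed genes, Retnla among them, summed to 648, 592, 824 and 273 CPM in monocytes. In peritoneal macrophages they summed to 665, 561, 507 and 189.7 CPM, lowest in library 4. The bounds were at least 2377-fold for Retnla, 2437-fold for Wnt2, 1258-fold for Dpysl3, 1186-fold for Bcam, 1059.8-fold for Kcnn3 and 1013-fold for Prtg. Lama3, a laminin chain gene, had 1 count in the monocyte libraries together and 218, 194, 149 and 197 CPM in the peritoneum, a ratio of counts of 9450.2 (95% interval 1696 to 373310.3). The summed mesothelial and fibroblast markers were near 0 in both groups. Those lists hold none of these 7 genes, and which cells made these transcripts was not tested.

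**Figure D3:**
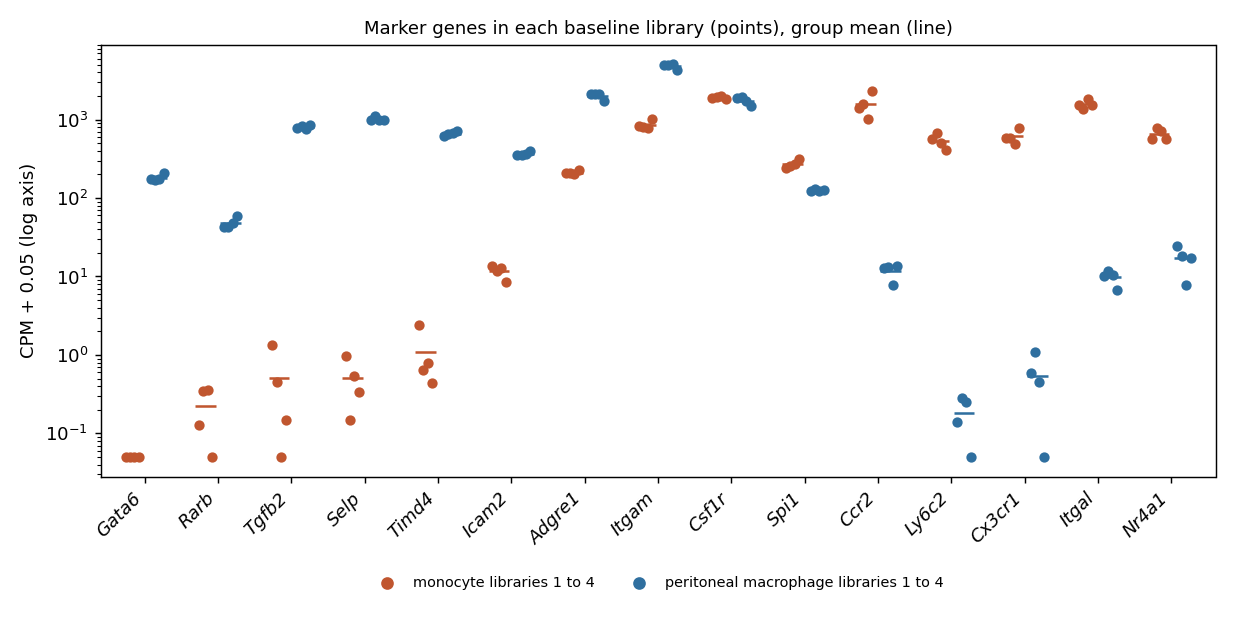
CPM of 15 marker genes in each baseline library (points; log axis, 0.05 added), with the group mean as a line. Gata6 to Itgam were higher in every peritoneal library, Csf1r overlapped between the groups, and Spi1 to Nr4a1 were lower in every peritoneal library.

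Of 20 genes that make, sense and degrade retinoic acid, 13 were expressed enough to test. Of these 8 were higher and 4 lower (61.5% and 30.8%, against 30.2% and 29.1% of all genes). By more than 2-fold 6 were higher and 2 lower (46.2% and 15.4%, against 11.2% and 8.85%). Rarb, the retinoic acid receptor beta gene, and Cyp26a1, the gene of an enzyme that breaks retinoic acid down, are textbook direct targets of the retinoic acid receptors. Their promoters are shown because they hold a match to the response element, as did 2 of the 15 retinoid genes with a promoter in the table and 1 of 17 of the large peritoneal macrophage list (Rarb again). The windows run 5′ to 3′ on the strand of the gene (RefSeq promoters on GRCm38.p6). Capitals mark a DR5 retinoic acid response element, a direct repeat of the receptors' half-site with 5 bases between the copies, searched on both strands.
Rarb chr14:16575468-16575574, minus strand: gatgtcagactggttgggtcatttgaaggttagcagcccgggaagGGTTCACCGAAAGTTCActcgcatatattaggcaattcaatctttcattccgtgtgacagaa
Cyp26a1 chr19:37697731-37697837, plus strand: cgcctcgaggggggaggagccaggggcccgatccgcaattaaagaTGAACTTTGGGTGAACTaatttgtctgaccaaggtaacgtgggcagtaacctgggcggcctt
The match lay at -53 to -37 from the start of Rarb, and at -32 to -16 from the start of Cyp26a1, where it reads on the other strand. A gene was counted if any of its promoters of 300 bases held the match. This was so for 31 of 27025 genes with a promoter (0.115%), and for 6 of the 8724 tested genes with a promoter. Of those 6 genes, Rarb, Cyp26a1, Cfap45 and Blvrb were more than 2-fold higher in peritoneal macrophages (4 of 961 such genes) and Ppbp, a platelet chemokine gene, more than 2-fold lower (1 of 755). A match describes the letters in this window and does not show that a receptor binds there.

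Rarb itself (chromosome 14, 16430839 to 17082331) was counted at 0.0769, 0.299, 0.307 and 0 CPM in monocytes and 42.9, 43.0, 47.4 and 58.5 CPM in peritoneal macrophages. The peritoneal libraries lay close together and far above every monocyte library (log2 fold change 7.97 ± 0.33, adjusted p = 1.06e-08). Cyp26a1 had 3 counts in monocytes, all in library 3, and 9.497, 8.45, 5.91 and 23.7 CPM in the peritoneum, highest in library 4 (ratio of counts 209 (95% interval 71.1 to 1015)). Its relative Cyp26b1 had 1 count in monocytes and 10.1, 9.49, 9.12 and 8.84 CPM in the peritoneum (ratio 465 (95% interval 83.0 to 18413)). Dhrs3, which turns retinaldehyde back to retinol, had 14.85, 17.8, 17.8 and 14.3 CPM and 369.8, 374, 313 and 299 CPM (log2 fold change 4.38 ± 0.13, adjusted p = 1.10e-09). Aldh1a2, which makes retinoic acid, had 0.231, 0.299, 0.553 and 0.875 CPM in monocytes and 27.2, 22.2, 18.1 and 27.5 CPM in peritoneal macrophages (log2 fold change 5.58 ± 0.32, adjusted p = 1.06e-07). The receptor gene Rara went the other way, with 340.2, 355, 305 and 363 CPM in monocytes and 95.3, 92.0, 81.1 and 69.8 CPM in the peritoneum (log2 fold change -2.01 ± 0.11, adjusted p = 9.82e-08), so the 2 receptor genes changed in opposite directions without overlap. Rxrg, a partner receptor gene, had 1 count in monocytes and averaged 2.79 ± 0.502 CPM in the peritoneum. The transglutaminase gene Tgm2 was also lower (log2 fold change -2.16 ± 0.39). The binding protein and transporter genes Crabp1, Crabp2, Rbp4 and Stra6 were too low to test.

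Monocyte genes lay on the other side. Of 15 tested classical monocyte genes 14 were lower (background 29.1%), 12 by more than 2-fold, with a median of -4.00. Ly6c2, which encodes the Ly6C antigen, had 559, 679, 499.8 and 412 CPM in monocytes and 0.0888, 0.231, 0.200 and 0 CPM in peritoneal macrophages. It was near 0 in every peritoneal library (log2 fold change -12.03 ± 0.32, adjusted p = 7.26e-10), although reads shared with its near-identical neighbour Ly6c1 make both values uncertain. Ccr2, the receptor that draws monocytes out of the marrow, had 1405, 1582, 1017 and 2329 CPM and 12.9, 13.2, 7.81 and 13.4 CPM (log2 fold change -7.06 ± 0.31, adjusted p = 1.55e-08). Chil3, a chitinase-like protein gene, had 1361, 1185, 944 and 5116 CPM and 2.49, 2.08, 2.80 and 69.5 CPM, with library 4 far above the others in both groups (log2 fold change -6.77 ± 1.23, and -5.87 without monocyte library 4, -9.76 without peritoneal library 4, -8.88 without library 4 of both groups, adjusted p = 7.14e-04). Plac8 averaged 1714 ± 109.6 CPM in monocytes and 5.24 ± 3.32 CPM in the peritoneum, and the matrix proteoglycan gene Vcan 286 ± 167 and 18.0 ± 4.13 CPM. F13a1, a coagulation factor gene typical of classical monocytes, was lower with overlapping libraries (log2 fold change -1.27 ± 0.35, adjusted p = 0.00872). The exception was Lyz1, a lysozyme gene, with 31.2, 30.3, 20.5 and 72.5 CPM in monocytes and 819, 799, 842 and 469.5 CPM in the peritoneum (log2 fold change 4.25 ± 0.38, and 4.91 without library 4 of both groups, adjusted p = 3.73e-06). Lyz1 has a near-identical copy, Lyz2, so its value is uncertain.

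Nonclassical monocyte genes showed 14 of 15 members lower, 12 by more than 2-fold (median -5.27). Cx3cr1, the fractalkine receptor, had 577, 578, 493 and 788 CPM in monocytes and 0.533, 1.04, 0.401 and 0 CPM in peritoneal macrophages (log2 fold change -10.36 ± 0.38, and -9.74 without library 4 of both groups, adjusted p = 4.67e-09). Itgal, the alpha chain of LFA-1, had 1520.3, 1383, 1809.8 and 1553 CPM and 10.03, 11.8, 10.4 and 6.61 CPM, 162-fold higher in monocytes. Nr4a1, the nuclear receptor these cells need, had 565, 780.5, 713 and 560.4 CPM and 24.6, 18.1, 7.71 and 17.4 CPM (log2 fold change -5.27 ± 0.30, adjusted p = 1.11e-07). Ace, the angiotensin-converting enzyme, averaged 1397 ± 381 CPM in monocytes and 2.06 ± 0.533 CPM in the peritoneum, and Spn (CD43) 377 ± 62.5 and 5.89 ± 2.12 CPM. All these genes were present in each monocyte library, without a split of the libraries into classical and nonclassical. Fabp4, a fatty acid binding protein gene also typical of macrophages, was the exception at 9.92, 2.39, 19.2 and 0.681 CPM in monocytes and 185, 186, 200.4 and 339 CPM in the peritoneum (log2 fold change 4.74 ± 0.65, and 5.63 without monocyte library 3, 4.10 without library 4 of both groups, adjusted p = 9.69e-05).

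The 10 largest differences downward mixed monocyte genes with genes of other cells. Besides Ly6c2 and Cx3cr1, they included Treml4 with 138, 92.8, 199 and 121 CPM in monocytes and 1 count in the peritoneum (ratio 6178 (95% interval 1109 to 244067)), the orphan receptor gene Gpr141 with 535, 582, 485 and 612 CPM and 1.07, 0.579, 0.301 and 0 CPM (log2 fold change -10.16 ± 0.35, and -11.00 without peritoneal library 1), and Met, the receptor of hepatocyte growth factor, with 91.1, 111, 76.2 and 87.6 CPM against 2 counts (ratio 1901 (95% interval 526 to 15704)). The eosinophil ribonuclease gene Ear2, which has close paralogs and is listed here among nonclassical monocyte genes, had 37.9, 23.3, 43.4 and 62.1 CPM in monocytes. Ltf and Ngp are granule genes of neutrophils. Ltf had 47.9, 14.9, 70.0 and 1.94 CPM in monocytes and 0 counts in the peritoneum (at least 551-fold lower), and Ngp had 106, 29.9, 161 and 8.75 CPM against 1 count. Both are among the 8 neutrophil markers summed above, and both were highest in monocyte library 3. The red cell gene Slc4a1 had 71.7, 11.9, 168 and 38.4 CPM in monocytes and 0 counts in the peritoneum (at least 1194-fold lower), and was highest in monocyte library 3. It is 1 of the 6 erythroid markers summed above. S100a9, a calgranulin gene of neutrophils and classical monocytes, averaged 109 ± 86.2 CPM in monocytes and 0.447 ± 0.655 CPM in the peritoneum. The share of these last 4 genes that came from monocytes was not tested.

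Of 38 tested transcription factors of the myeloid lineage 9 were higher and 19 lower (23.7% and 50%, against 30.2% and 29.1% of all genes), 4 and 11 by more than 2-fold (10.5% and 28.9%, against 11.2% and 8.85%). Spi1 (PU.1), required for both populations, had 245, 259, 269 and 311 CPM in monocytes and 123, 131, 124 and 128 CPM in peritoneal macrophages (log2 fold change -1.10 ± 0.09, adjusted p = 1.75e-06). Maf, a factor of macrophage differentiation, was higher in the peritoneum (log2 fold change 1.33 ± 0.21), as was Klf2, an endothelial and leukocyte quiescence factor (1.00 ± 0.09), while Bhlhe40 was 4.45-fold higher. Irf8, which directs monocyte and dendritic cell fate, had 243, 236, 201 and 250.3 CPM in monocytes and 90.5, 90.3, 57.4 and 70.1 CPM in the peritoneum (log2 fold change -1.59 ± 0.15, adjusted p = 4.83e-06). Klf4, needed for monocyte differentiation, had 242, 219, 231 and 354 CPM and 67.8, 58.4, 52.6 and 113 CPM (log2 fold change -1.84 ± 0.24, adjusted p = 7.57e-05), and Runx1 had 192, 221, 210.1 and 209 CPM and 76.9, 57.6, 60.9 and 55.8 CPM (log2 fold change -1.73 ± 0.11, adjusted p = 2.84e-07). The lipid-sensing receptor genes Pparg (log2 fold change -4.68 ± 0.55) and Nr1h3, which encodes LXR-alpha (-2.06 ± 0.23), were lower too. Spic, the factor of splenic red pulp macrophages, had 15.0, 13.4, 19.97 and 14.4 CPM in monocytes and 3 counts in the peritoneum (ratio 229 (95% interval 78.0 to 1112)). Zeb2, expressed in both, overlapped at 1312 ± 199.9 and 1267 ± 99.1 CPM (adjusted p = 0.732).

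Growth factor receptors were lower in 13 of 20 tests and higher in 3. Csf1r, the receptor of macrophage colony-stimulating factor that both populations depend on, had 1862, 1946, 1989 and 1829.7 CPM in monocytes and 1885, 1925, 1709.6 and 1483 CPM in peritoneal macrophages. The libraries overlapped and the difference did not pass (log2 fold change -0.12 ± 0.10, adjusted p = 0.299; 95% interval of the log2 fold change -0.32 to 0.07). Flt3, the receptor of dendritic cell and progenitor growth, had 51.0, 51.8, 39.997 and 48.8 CPM and 0.976, 0.347, 1.00 and 0.239 CPM (log2 fold change -6.21 ± 0.29, adjusted p = 2.35e-08), and the dendritic cell markers, of which it is 1, were higher in monocytes as a sum. Csf2ra, the receptor chain for GM-CSF, was lower by less than 2-fold (log2 fold change -0.92 ± 0.09). Cytokine receptors followed, with Il10ra at 419.7, 431, 460.2 and 401 CPM and 133, 120.1, 139.7 and 129 CPM (log2 fold change -1.71 ± 0.08, adjusted p = 3.33e-08), and Ifngr1, the interferon gamma receptor chain, at 850.1, 786, 798 and 1029 CPM and 178, 176, 149 and 144 CPM (log2 fold change -2.42 ± 0.12, adjusted p = 3.84e-08). Acvrl1, a receptor kinase of the TGF-beta family, was 50.7-fold higher in monocytes, while Tgfbr2 was higher in the peritoneum (log2 fold change 0.83 ± 0.09).

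Core genes of tissue macrophages were higher in 20 of 25 tests and lower in 3 (19 and 0 by more than 2-fold; median 1.86). Adgre1, which encodes F4/80, had 210.1, 206, 200.05 and 226 CPM in monocytes and 2103, 2096, 2103 and 1715 CPM in peritoneal macrophages (log2 fold change 3.25 ± 0.10, adjusted p = 1.55e-09). It was expressed in each monocyte library too, so it separated the groups by level. Mertk, the receptor kinase for apoptotic cells, had 5.85, 1.99, 6.57 and 0.486 CPM and 227, 211, 228 and 176 CPM (log2 fold change 5.72 ± 0.45, adjusted p = 1.34e-06). Fcgr1 (CD64), often used to tell macrophages from dendritic cells, went against the list with 76.1, 78.4, 71.0 and 63.6 CPM in monocytes and 38.7, 41.2, 39.0 and 19.9 CPM in the peritoneum (log2 fold change -1.06 ± 0.20, adjusted p = 8.13e-04). Itgam (CD11b) had 821, 800.1, 786 and 1023 CPM and 5002, 4928, 5075 and 4295 CPM (log2 fold change 2.49 ± 0.11, adjusted p = 2.23e-08).

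Complement genes were higher in 13 of 17 tests, 12 of them by more than 2-fold, and lower in 3. The 3 chains of C1q, which starts the classical pathway, were higher together. C1qa had 4.15, 1.10, 3.32 and 0.486 CPM in monocytes and 821, 746, 729 and 368 CPM in peritoneal macrophages (log2 fold change 8.10 ± 0.48, adjusted p = 1.44e-07), and C1qb and C1qc averaged 1119 ± 216 and 1801 ± 489 CPM in the peritoneum against 6.44 ± 1.55 and 5.81 ± 4.27 CPM. C4b, the next component of that pathway, had 4.69, 2.29, 4.98 and 9.72 CPM and 7521, 7457, 6899 and 5919 CPM (log2 fold change 10.33 ± 0.38, adjusted p = 5.05e-09), with reads it may share with its close copy C4a. Cfb and Cfp (properdin) of the alternative pathway were higher, Cfp with 38.8, 36.7, 35.5 and 35.2 CPM and 1544, 1636, 1371 and 1289.5 CPM (log2 fold change 5.32 ± 0.11, adjusted p = 3.28e-10) and Cfb by 13.9-fold. C3, the central component, was lower instead, with 909.6, 1135, 976 and 1330.1 CPM in monocytes and 442, 528, 488 and 530.3 CPM in the peritoneum (log2 fold change -1.13 ± 0.13, adjusted p = 2.00e-05). Among receptors, Vsig4 (CRIg), which binds C3 fragments on microbes, had 0.385, 0.0997, 0.492 and 0 CPM and 492, 471, 491 and 428 CPM (log2 fold change 10.66 ± 0.28, and 11.26 without monocyte library 3, adjusted p = 6.51e-10). The anaphylatoxin receptor C3ar1 was 87.8-fold and C5ar1 3.32-fold higher. Itgax, the alpha chain of complement receptor 4 (CD11c), was lower (log2 fold change -6.40 ± 0.70, and -7.35 without peritoneal library 1).

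Coagulation genes were higher in 9 of 15 tests and lower in 5 (8 and 2 by more than 2-fold), and 10 of the 25 listed were too low to test. F5, factor V, had 143, 134, 112 and 175 CPM in monocytes and 2829, 3229.6, 2771 and 4219.8 CPM in peritoneal macrophages (log2 fold change 4.53 ± 0.19, adjusted p = 1.20e-08). F10 had 75.4, 63.9, 68.6 and 135 CPM and 268, 302, 334 and 317 CPM (log2 fold change 1.83 ± 0.22, adjusted p = 3.27e-05), and F7 averaged 0.782 ± 0.440 and 44.5 ± 7.49 CPM. Factors V, VII and X, which act in sequence towards thrombin, were all higher in the peritoneum. Thbs1, thrombospondin 1, had 86.6, 317, 93.9 and 212 CPM and 6643, 6704, 7164 and 7015 CPM (log2 fold change 5.28 ± 0.42, adjusted p = 1.43e-06), and Serpinb2, an inhibitor of plasminogen activators, 3.00, 1.10, 2.46 and 3.50 CPM and 789, 1029, 941 and 1337 CPM (log2 fold change 8.65 ± 0.29, adjusted p = 3.17e-09). Pros1, an anticoagulant that also bridges dying cells to MERTK, was 10.1-fold higher.

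Efferocytosis genes, for the uptake of dying cells, were higher in 10 of 19 tests and lower in 7. Beside Mertk, Timd4 and Pros1, Stab1 (stabilin 1) had 0.846, 1.20, 2.46 and 3.21 CPM in monocytes and 458, 397, 376 and 121 CPM in peritoneal macrophages (log2 fold change 7.44 ± 0.51, adjusted p = 4.91e-07), and the bridging protein gene Mfge8 was 5.32-fold higher. Itgb5, an integrin chain of a vitronectin receptor, was 106-fold higher in monocytes, with 1.07, 1.16, 0.401 and 0.319 CPM in the peritoneum. Scavenger receptors and lectins were higher in 14 of 23 tests and lower in 6. Marco, a receptor for bacteria and particles, had 1.85, 0.498, 1.41 and 0 CPM and 279, 241, 335 and 149.9 CPM (log2 fold change 7.92 ± 0.47, adjusted p = 1.47e-07). Msr1 and Cd36, which take up modified lipoproteins, were 6.22-fold and 10.7-fold higher, with Cd36 at 113, 51.3, 183 and 56.3 CPM in monocytes and 1054, 1191, 1210.0 and 864 CPM in the peritoneum. Cd5l, a secreted scavenger family member, was 174-fold higher. Of the C-type lectins, Clec4d rose 21.7-fold while Clec7a (Dectin-1) had 482, 523, 433 and 629.8 CPM in monocytes and 114, 132, 123 and 159 CPM in the peritoneum (log2 fold change -1.97 ± 0.14, adjusted p = 5.59e-07). The haemoglobin scavenger gene Cd163 and the mannose receptor gene Mrc1 were higher (log2 fold changes 3.93 ± 0.48 for Cd163 and 1.64 ± 0.41 for Mrc1), and the galectin gene Lgals3 lower (-2.48 ± 0.21).

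Of 9 tested Fc receptor genes 3 were higher and 3 lower (33.3% each, near the 30.2% and 29.1% of all genes), 1 of them by more than 2-fold. That gene was Fcgrt, the recycling receptor for IgG and albumin, with 25.5, 25.4, 23.9 and 35.7 CPM in monocytes and 153, 157, 119 and 90.5 CPM in peritoneal macrophages (log2 fold change 2.23 ± 0.19, adjusted p = 2.76e-06). Fcgr3 was higher (log2 fold change 1.22 ± 0.14), and the shared signalling chain gene Fcer1g lower (-1.10 ± 0.11). Toll-like receptor genes and their adaptors were lower in 13 of 20 tests and higher in 4. The lipopolysaccharide receptor complex was on the higher side, with Tlr4 at 52.0, 45.6, 57.7 and 53.3 CPM and 153, 154, 179.5 and 151 CPM (log2 fold change 1.61 ± 0.10, adjusted p = 1.96e-07) and Cd14 at 21.2, 57.3, 32.9 and 24.7 CPM and 219, 271, 270.2 and 244 CPM (log2 fold change 2.89 ± 0.27, adjusted p = 5.28e-06). The sensors of nucleic acids Tlr7 and Tlr9 were lower, Tlr9 with 199, 241, 219 and 209.9 CPM in monocytes and 2.84, 2.08, 3.41 and 0.159 CPM in the peritoneum (log2 fold change -6.72 ± 0.40, adjusted p = 1.44e-07) and Tlr7 by 2.97-fold. Tlr5, the flagellin receptor, and the adaptor Myd88 were lower as well (log2 fold changes -2.64 ± 0.38 for Tlr5 and -1.53 ± 0.14 for Myd88).

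Of 23 tested eicosanoid genes 12 were higher and 6 lower (52.2% and 26.1%, against 30.2% and 29.1% of all genes). By more than 2-fold 10 were higher and 5 lower (43.5% and 21.7%, against 11.2% and 8.85%). Alox15, the 12/15-lipoxygenase of resident peritoneal macrophages, had 16.54, 4.19, 10.8 and 0.583 CPM in monocytes and 7327, 7198, 6172 and 5901 CPM in peritoneal macrophages, with a wide spread among monocytes, lowest in library 4 (log2 fold change 9.65 ± 0.69, and 10.24 without monocyte library 1, adjusted p = 6.77e-07). Alox5, which starts leukotriene synthesis, had 23.3, 13.95, 20.5 and 30.1 CPM and 348, 355, 335 and 316 CPM (log2 fold change 3.95 ± 0.20, adjusted p = 4.08e-08), and Ltc4s, leukotriene C4 synthase, 0.154, 0.299, 0.307 and 0 CPM and 224, 203, 222 and 160.2 CPM (log2 fold change 9.90 ± 0.27, adjusted p = 8.67e-10). The cyclooxygenases went opposite ways. Ptgs1 (COX-1) had 10.8, 5.28, 4.79 and 5.74 CPM in monocytes and 498, 513, 490.1 and 566 CPM in the peritoneum (log2 fold change 6.27 ± 0.24, adjusted p = 7.35e-09). Ptgs2, the inducible COX-2, had 3.15, 40.6, 17.6 and 2.43 CPM and 0.355, 0.116, 0.200 and 0.0796 CPM (log2 fold change -6.32 ± 1.12, and -5.30 without monocyte library 2, adjusted p = 6.08e-04), high in monocyte libraries 2 and 3. Downstream, the prostacyclin synthase gene Ptgis had 0.385, 0.199, 0.184 and 0 CPM and 235, 288, 241 and 299.8 CPM (log2 fold change 10.29 ± 0.26, adjusted p = 6.39e-10), and the thromboxane synthase gene Tbxas1 was 5.62-fold higher. Hpgd, which inactivates prostaglandins, was 163-fold higher in monocytes, with 2.66, 1.97, 1.20 and 1.51 CPM in the peritoneum. The leukotriene receptors also split, Ltb4r1 lower (log2 fold change -7.05 ± 0.50, and -6.31 without library 4 of both groups) and Cysltr1 higher (2.18 ± 0.55, and 2.99 without monocyte library 4, 1.59 without peritoneal library 4). Alox12, a platelet lipoxygenase gene, averaged 5.51 ± 3.46 CPM in monocytes and had 0 counts in the peritoneum, beside the platelet markers.

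**Figure D4:**
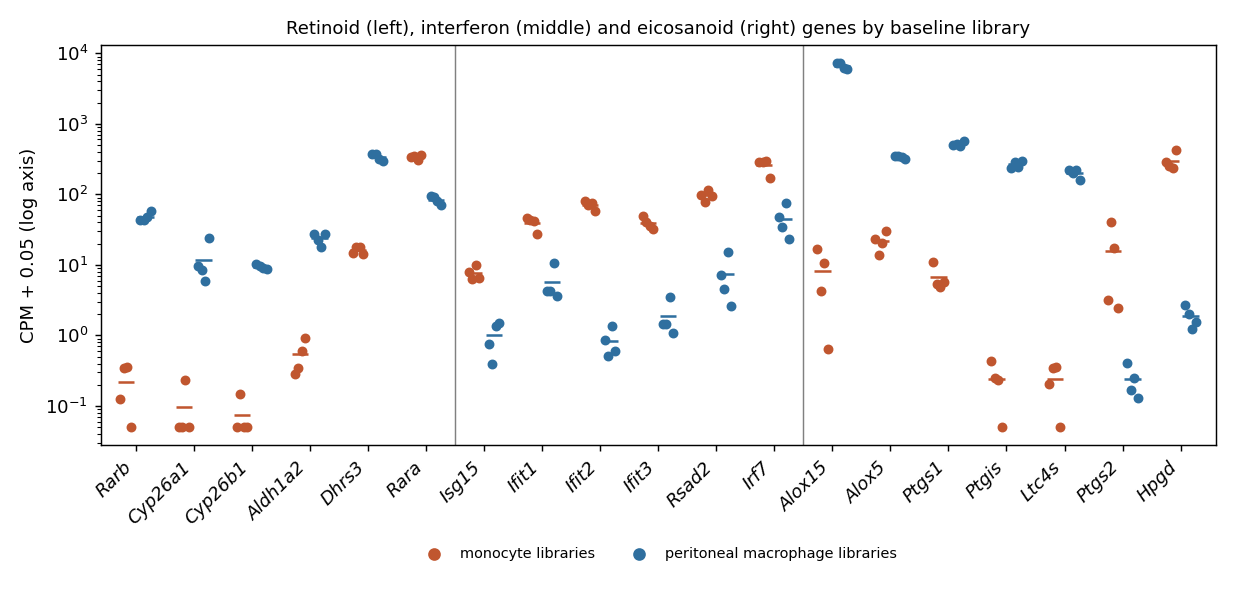
CPM of retinoid (left), interferon response (middle) and eicosanoid (right) genes in each baseline library (points; log axis, 0.05 added), with the group mean as a line. No gene shown overlaps between the groups; Rara, all 6 interferon genes, Ptgs2 and Hpgd were lower in peritoneal macrophages and the others higher.

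Of 14 tested genes of the chemokine receptor list 6 were lower and 4 higher (42.9% and 28.6%, against 29.1% and 30.2% of all genes). The share higher was thus near that of all genes. All of them differed by more than 2-fold (against 8.85% lower and 11.2% higher of all genes). The list also holds sphingosine phosphate receptor genes, of which S1pr1 is among the higher. The 6 lower became 10 without library 4 of either group or with no filter, and 11 without library 4 of both groups. Beside Ccr2 and Cx3cr1, Cxcr4, the receptor that retains cells in marrow and spleen, had 161, 198, 317 and 224 CPM in monocytes and 3.28, 2.20, 8.51 and 3.82 CPM in peritoneal macrophages (log2 fold change -5.66 ± 0.36, adjusted p = 2.63e-07). On the other side, Ccr1, a receptor for inflammatory CC chemokines, had 18.6, 26.6, 15.4 and 46.6 CPM and 482, 526, 442 and 524 CPM (log2 fold change 4.22 ± 0.31, adjusted p = 7.68e-07). The sphingosine phosphate receptor gene S1pr1 was 20.6-fold higher. Ackr3, a scavenging receptor of CXCL12, averaged 0.0845 ± 0.0984 CPM in monocytes and 47.1 ± 23.5 CPM in the peritoneum. Chemokine genes were higher in 9 of 16 tests and lower in 4. Cxcl13, which attracts B cells to the body cavities (chromosome 5, 95956939 to 95961068), had 0.462, 0.199, 0 and 0 CPM in monocytes and 879, 1242, 921 and 1176 CPM in the peritoneum (log2 fold change 12.58 ± 0.38, and 13.96 without monocyte library 1, adjusted p = 1.44e-09). Cxcl12, the ligand of CXCR4, had 0.615, 0.299, 0 and 0 CPM and 55.2, 68.4, 50.2 and 71.5 CPM (log2 fold change 8.04 ± 0.43, and 9.35 without monocyte library 1, adjusted p = 7.53e-08), so receptor and ligand genes differed in opposite directions. Pf4, a chemokine gene of platelets and resident macrophages, was 317-fold higher although platelet markers were lower, and the eotaxin gene Ccl24 was 217-fold higher. Cxcl1 had 2 counts in monocytes and averaged 14.5 ± 6.22 CPM in the peritoneum. Ccl5, which T and NK cells also make, and the interferon-induced Cxcl10 were lower (log2 fold changes -4.84 ± 0.64, and -5.44 without peritoneal library 1 for Ccl5 and -5.23 ± 0.58, and -6.47 without peritoneal library 3 for Cxcl10).

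Adhesion genes were lower in 16 of 25 tests and higher in 8 (14 and 6 by more than 2-fold). The integrin chain Itga4, with which monocytes bind vessel wall VCAM-1, had 3056, 2799.7, 3056 and 3552 CPM in monocytes and 1121, 1109, 1199 and 1204 CPM in peritoneal macrophages (log2 fold change -1.43 ± 0.09, adjusted p = 3.46e-07). Itga6, a laminin-binding chain, had 19.8, 17.4, 14.4 and 45.2 CPM and 3592, 3613, 3585 and 3438 CPM (log2 fold change 7.21 ± 0.37, adjusted p = 5.12e-08). Its partner Itgb1 was 3.07-fold higher, and Itga9 23.7-fold. The beta chain Itgb2 was higher by 2.14-fold, while of its alpha partners Itgam was higher and Itgal and Itgax lower. Cd44, the hyaluronan receptor, and Pecam1 (CD31) were lower (log2 fold changes -1.67 ± 0.14 for Cd44 and -2.45 ± 0.34 for Pecam1). Vcam1 averaged 25.9 ± 15.1 CPM in monocytes and had 3 counts in the peritoneum. It is 1 of the 6 red pulp macrophage markers summed above, and the part of those cells was not tested.

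MHC class II presentation genes were higher in 0 of 12 tests (0 also in DESeq2 and limma-voom, and 0 at an unadjusted p under 0.05) and lower in 9, 5 of them by more than 2-fold (median -1.82). Ciita, the transactivator that switches the pathway on, had 56.2, 68.4, 96.7 and 27.7 CPM in monocytes and 6.12, 4.40, 6.91 and 0.956 CPM in peritoneal macrophages (log2 fold change -3.78 ± 0.50, adjusted p = 7.14e-05). Cd74, the invariant chain, had 1095, 1077, 1778 and 469 CPM and 203, 173, 366 and 43.2 CPM (log2 fold change -2.49 ± 0.56, adjusted p = 0.00277). The alpha and beta chains of I-A overlapped between the groups, H2-Aa at 325, 293, 535 and 118 CPM and 82.8, 61.3, 135 and 16.9 CPM (log2 fold change -2.11 ± 0.56, adjusted p = 0.0077) and H2-Ab1 with a log2 fold change of -2.19 ± 0.53. B cells and dendritic cells express the same genes. B cell markers overlapped between the groups and were lowest in peritoneal library 4, which also had the lowest H2-Aa of the 8 libraries, and dendritic cell markers were higher in every monocyte library.

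Interferon response genes were higher in 0 of 28 edgeR tests (0 in DESeq2 and limma-voom, and 0 at an unadjusted p under 0.05) and lower in 24 (background 29.1%), 18 by more than 2-fold (background 8.85%), with a median of -1.69. These genes are switched on through the interferon-stimulated response element. The promoters of 4 members, chosen among the 9 that hold a match to its core (GAAA, any 2 bases, then GAAA, on either strand), are shown with the matches in capitals; windows run 5′ to 3′ on the strand of the gene.
Isg15 chr4:156200830-156200941, minus strand: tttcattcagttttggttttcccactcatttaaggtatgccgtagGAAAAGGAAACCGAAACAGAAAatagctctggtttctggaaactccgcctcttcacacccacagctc
Rsad2 chr12:26456518-26456617, minus strand: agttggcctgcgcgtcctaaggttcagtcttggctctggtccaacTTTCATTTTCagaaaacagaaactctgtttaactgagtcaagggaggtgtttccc
Ifit1 chr19:34640740-34640858, plus strand: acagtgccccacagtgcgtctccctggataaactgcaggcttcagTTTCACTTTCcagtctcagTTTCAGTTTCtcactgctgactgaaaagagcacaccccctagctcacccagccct
Ifit3 chr19:34583328-34583461, plus strand: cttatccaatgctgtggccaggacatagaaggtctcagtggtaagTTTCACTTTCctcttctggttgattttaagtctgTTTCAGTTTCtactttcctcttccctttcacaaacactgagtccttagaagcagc
Isg15 holds 3 overlapping matches between -78 and -57, Ifit1 2 between -104 and -76, Ifit3 2 between -156 and -113, and Rsad2 1 at -120 to -111. The core was found in 1079 of 27025 genes with a promoter (3.99%) and in 9 of the 19 interferon response genes with a promoter in the table. It was in promoters of 46 of 755 genes more than 2-fold lower in peritoneal macrophages (6.09%) and of 30 of 961 more than 2-fold higher (3.12%). The share of tested genes was 344 of 8724 (3.94%). The letters AGATAA, a form of the GATA factor motif, were in promoters of 2 of 17 genes of the large peritoneal macrophage list (Tgfb2 and Serpinb2). Of tested genes 666 of 8724 held them (7.63%). They were in promoters of 70 of 961 genes more than 2-fold higher (7.28%) and of 84 of 755 more than 2-fold lower (11.1%). These shares are descriptions and were not tested.

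Isg15, a ubiquitin-like protein, had 7.85, 6.28, 10.1 and 6.51 CPM in monocytes and 0.710, 0.347, 1.30 and 1.43 CPM in peritoneal macrophages (log2 fold change -2.98 ± 0.38, adjusted p = 5.73e-05). Rsad2 (viperin) had 99.1, 78.9, 116 and 93.7 CPM and 7.10, 4.51, 15.0 and 2.55 CPM (log2 fold change -3.74 ± 0.40, and -4.36 without peritoneal library 3, adjusted p = 1.56e-05). Of the IFIT RNA-binding proteins, Ifit1 had 46.0, 43.1, 42.0 and 27.0 CPM and 4.26, 4.28, 10.6 and 3.58 CPM (log2 fold change -2.81 ± 0.32, adjusted p = 2.71e-05), Ifit2 80.4, 71.7, 76.3 and 58.4 CPM and 0.799, 0.463, 1.30 and 0.558 CPM (log2 fold change -6.51 ± 0.23, adjusted p = 3.68e-09), and Ifit3 49.4, 39.96, 35.6 and 32.0 CPM and 1.42, 1.39, 3.51 and 1.04 CPM (log2 fold change -4.43 ± 0.31, adjusted p = 5.88e-07). Peritoneal library 3 was the highest peritoneal library for Ifit1, Ifit2, Ifit3, Rsad2 and Irf7, and stayed below every monocyte library. Irf7, the factor that amplifies interferon production, had 286, 289.6, 299 and 168 CPM and 48.0, 33.9, 74.2 and 22.9 CPM (log2 fold change -2.54 ± 0.33, adjusted p = 5.88e-05). The antiviral GTPase Mx1 was 5.15-fold higher in monocytes. Dendritic cell markers, which include genes of plasmacytoid cells, moved in the same direction, and their part was not tested.

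Cholesterol genes differed by route. Synthesis and uptake genes under SREBP2 were higher in 17 of 22 tests and lower in 0 (0 in DESeq2, 1 in limma-voom and 0 at an unadjusted p under 0.05; 7 higher by more than 2-fold; median 1.07). Sqle, which makes squalene epoxide, had 3.15, 2.89, 2.09 and 0.292 CPM in monocytes and 14.1, 7.98, 7.81 and 20.4 CPM in peritoneal macrophages (log2 fold change 2.57 ± 0.52, and 1.88 without library 4 of both groups, adjusted p = 0.00144). The later enzymes Lss and Hsd17b7 were 7.53-fold and 10.1-fold higher. A list of targets of the oxysterol receptors LXR and of cholesterol transport genes was higher in 8 of 19 tests and lower in 4. These are 42.1% and 21.1%, against 30.2% and 29.1% of all genes. The list also holds the LXR genes themselves, with Nr1h3 among the lower, so the counts are not of LXR targets alone. The exporters split, Abca1 higher (log2 fold change 1.46 ± 0.17) and Abcg1 lower with 269, 268, 240.2 and 280.5 CPM in monocytes and 86.4, 63.8, 62.3 and 64.6 CPM in the peritoneum (log2 fold change -1.93 ± 0.12, adjusted p = 1.80e-07). The phospholipid transfer protein Pltp was 16.47-fold, the lipoprotein lipase Lpl 8.62-fold and the apolipoprotein Apoc1 170.1-fold higher. Apoc1 lies beside the disrupted Apoe, whose own counts did not pass the test (log2 fold change -0.40 ± 0.24, adjusted p = 0.169; adjusted p = 0.0331 in limma-voom).

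Lysosomal genes were higher in 16 of 28 tests and lower in 2. The protease cathepsin D gene Ctsd had 125, 108, 101 and 141 CPM in monocytes and 2078, 1830.0, 1633 and 1584 CPM in peritoneal macrophages (log2 fold change 3.91 ± 0.14, adjusted p = 4.65e-09), and Ctsl was 5.15-fold higher. The sugar-cleaving enzymes Glb1, Man2b1 and Hexa were 10.7-, 3.54- and 3.23-fold higher, and the membrane protein Lamp1 1.43-fold. Psap, which makes the saposins that help digest sphingolipids, went down, with 6585, 7453, 5963 and 6925 CPM in monocytes and 2512, 2319.9, 2138 and 1555 CPM in the peritoneum (log2 fold change -1.66 ± 0.15, adjusted p = 3.42e-06). Iron genes were higher in 9 of 20 tests and lower in 7 (45% and 35%, against 30.2% and 29.1% of all genes). Ceruloplasmin, Cp, a ferroxidase, had 0.692, 0.299, 1.84 and 0.0972 CPM and 206, 172, 207 and 78.9 CPM (log2 fold change 7.60 ± 0.51, and 8.68 without monocyte library 3, adjusted p = 3.84e-07), and the biliverdin reductase Blvrb was 5.27-fold higher. Slc40a1 (ferroportin) had 47.6, 22.4, 40.2 and 9.43 CPM in monocytes and 0, 0.116, 0.200 and 0.478 CPM in the peritoneum (log2 fold change -7.09 ± 0.71, and -8.07 without peritoneal library 4, -8.38 without library 4 of both groups, adjusted p = 8.67e-06). This gene is also among the 6 red pulp macrophage markers summed above, whose part was not tested.

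Cell division genes did not pass in 18 of 26 tests. The 7 called higher, close to the background of 30.2%, were led by the replication helicase genes, Mcm6 with 20.8, 17.3, 27.3 and 13.1 CPM in monocytes and 86.5, 54.5, 93.3 and 84.5 CPM in peritoneal macrophages (log2 fold change 2.01 ± 0.23, adjusted p = 2.27e-05), Mcm3 (log2 fold change 1.54 ± 0.18) and Mcm2 (1.82 ± 0.23), and by the thymidylate synthase gene Tyms (2.81 ± 0.44). Top2a, a topoisomerase of dividing cells, overlapped between the groups at 40.8, 14.2, 54.6 and 11.8 CPM and 85.5, 34.1, 99.9 and 106 CPM (log2 fold change 1.41 ± 0.48, adjusted p = 0.0269; its call was lost without monocyte library 2, without any of peritoneal libraries 1, 3 and 4, and without library 4 of both groups, with adjusted p 0.0526 to 0.0862). Mki67, the Ki-67 antigen, overlapped at 164, 52.5, 281 and 30.5 CPM and 164, 67.7, 181 and 239 CPM and did not pass (log2 fold change 0.30 ± 0.59, and 0.97 without monocyte library 3). The number of members called higher moved to 12 without monocyte library 3 and to 11 without peritoneal library 2.

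Glycolysis genes were higher in 6 of 21 tests and lower in 10 (28.6% and 47.6%, against 30.2% and 29.1% of all genes). Gapdh had 214, 218, 215 and 276 CPM in monocytes and 562.1, 587, 576 and 637 CPM in peritoneal macrophages (log2 fold change 1.36 ± 0.10, adjusted p = 9.49e-07), and Pfkl and Ldha were 7.09-fold and 2.86-fold higher. Hk2, the inducible hexokinase, had 138, 146, 122 and 146 CPM and 73.3, 64.2, 55.0 and 88.0 CPM (log2 fold change -0.97 ± 0.14, adjusted p = 1.17e-04), and the regulator Pfkfb4 was 9.002-fold higher in monocytes. Of 30 respiratory chain genes 9 were higher and 6 lower (30% and 20%, against 30.2% and 29.1% of all genes), and 0 by more than 2-fold. Their log2 fold changes ran from -0.94 to 0.99, with the subunits Sdhc at 0.59 ± 0.10 and Uqcrfs1 at -0.65 ± 0.11.

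Libraries of the fed mice, none shared with the baseline comparison, allow the same contrast to be taken again. They held 1.31 to 2.56 M counts at the early and 0.943 to 2.21 M at the advanced stage, so diet, time and depth cannot be told apart. At the early stage 2748 of 9501 genes (28.9%) were called, and at the advanced stage 4767 of 8993 (53.0%). Of all 6770 genes called at baseline, 5709 could be tested at the early stage, where 2532 (44.4%) were called in the same direction and 4 in the opposite one, and 5521 at the advanced stage, where 3854 (69.8%) and 55 were. Of the 2294 genes more than 2-fold different at baseline, 1656 could be tested at the early stage, where 1355 were called in the same direction and 0 in the opposite one. At the advanced stage 1565 of 1609 were called in the same direction and 1 in the opposite one. Of the 91 genes named by rule that passed at baseline, 74 of 88 tested at the early and 82 of 86 at the advanced stage were called in the same direction, and 0 in the opposite one at both. Adgre1 had log2 fold changes of 3.27 ± 0.41 at the early and 3.81 ± 0.16 at the advanced stage, Selp of 10.46 ± 0.80 at the early and 9.30 ± 0.21 at the advanced stage, Mertk of 4.10 ± 0.28 at the early and 5.32 ± 0.26 at the advanced stage, C1qa of 6.62 ± 0.26 at the early and 8.73 ± 0.30 at the advanced stage and Ifit3 of -2.84 ± 0.62 at the early and -2.57 ± 0.52 at the advanced stage.

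A test of the difference between the stages' contrasts (1 fit of 24 libraries) called 288 of 10343 genes (2.78%) for early against baseline, 235 of them with a more positive log2 fold change at the early stage. Monocyte genes were among them. Ccr2 had log2 fold changes of -7.06 at baseline, -0.90 ± 0.88 at the early and -8.01 ± 0.28 at the advanced stage, and Cx3cr1 of -10.36 at baseline, -5.01 ± 0.58 at the early and -8.88 ± 0.33 at the advanced stage. Early peritoneal libraries 1 and 2 stood apart, with Spearman correlations of 0.914 to 0.933 with libraries 3 and 4, which correlated at 0.973 with each other. Libraries 1 and 2 correlated at 0.922 with each other, within the range of their correlations with libraries 3 and 4. In early peritoneal libraries 1 to 4 the 16 classical monocyte genes summed to 4164, 4917, 1161 and 1406 CPM, the 12 MHC class II genes to 7140.1, 16992, 1725 and 1661 CPM and the 22 large peritoneal macrophage genes to 45338, 39607, 94479 and 78133 CPM (of the plain library total). Libraries 1 and 2 were high in monocyte and MHC class II genes and low in large peritoneal macrophage genes. Without these 2 libraries the test called 12 genes, and 84 of 88 genes named by rule, in place of 74, were called in their baseline direction at the early stage. In the early monocyte libraries the 8 neutrophil markers summed to 14209.9, 10708, 3785 and 8788 CPM, against 601, 246, 723 and 241 CPM at baseline.

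For advanced against baseline the same test called 238 of 10343 genes (2.3%), 175 of them with a more negative log2 fold change at the advanced stage (1.69%) and 63 with a more positive one (0.609%), and 467 without those 2 early libraries. Among genes named here, the division genes moved down. The log2 fold changes of Mcm6 were 2.01 at baseline and 0.13 ± 0.24 at the advanced stage (difference -1.91, adjusted p = 0.0242), and the differences were -4.00 for Top2a, -3.48 for Mki67 and -3.57 for Tyms. At the advanced stage itself Mcm6, Mcm3, Mcm2 and Tyms did not pass, while Top2a and Mki67 were lower in peritoneal macrophages (log2 fold changes -2.56 ± 0.50 and -3.15 ± 0.55).

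**Figure D5:**
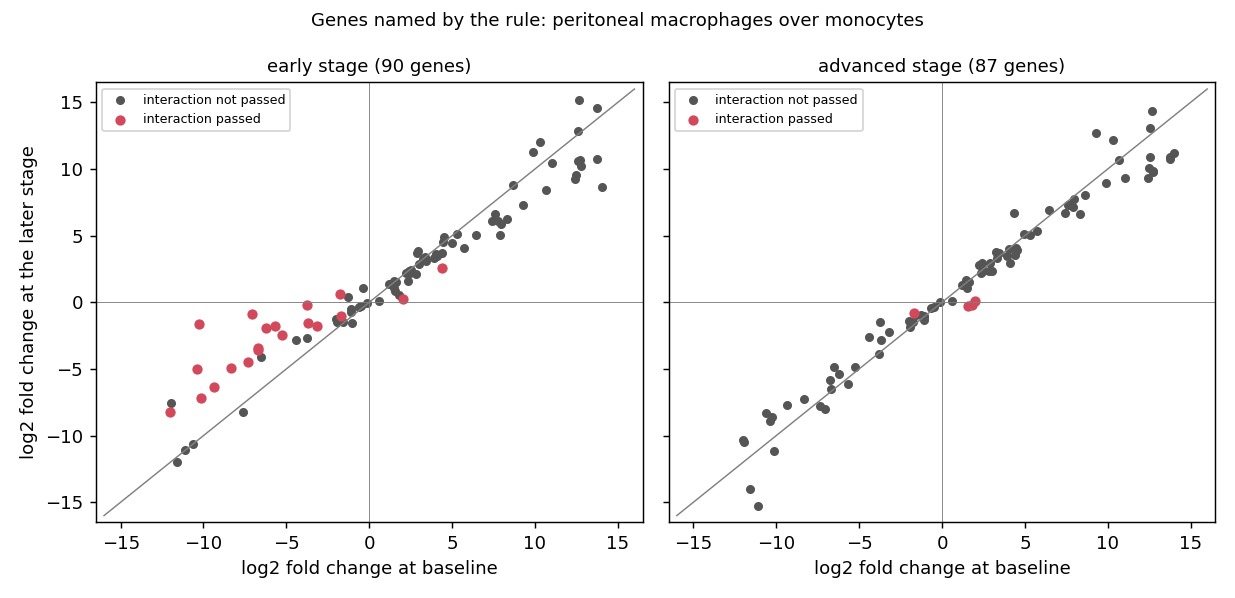
Log2 fold change of peritoneal macrophages over monocytes at baseline (horizontal) against the early (left, 90 genes) and advanced stage (right, 87 genes), 1 point for each gene named by rule that could be tested, with the line of equal values. Coloured points passed the test of the difference between stages, 20 of 93 at the early and 4 of 93 at the advanced stage; 2 of 93 passed at the early stage without the 2 early peritoneal libraries that stood apart.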

How the data were processed

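PolyA RNA of flow-sorted cells was purified on small-input columns. Libraries came from the Ovation SoLo kit, and a NextSeq500 read both ends of each fragment, per the labels' protocols. The deposited files hold the authors' whole-number read counts for 24421 genes, a file for each library. The submitters' processing notes name STAR, featureCounts and the assembly mm10; versions, the annotation and the use of strand are not given in the sources used here. Values of overlapping or antisense genes, and of near-identical copies such as Ly6c1 and Ly6c2, Lyz1 and Lyz2, Ear2 or C4b, are therefore uncertain.

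Groups came from the sample titles. Genes kept by filterByExpr were tested with edgeR 4.0.16 (R 4.3.3): TMM scaling, a quasi-likelihood test with population as the only factor, two-sided, Benjamini-Hochberg adjusted p under 0.05, and glmTreat against a fold of 2. Standard errors were derived as the size of the log2 fold change divided by the root of the F statistic. The biological coefficient of variation was 19.1% at baseline. The members and gene lists were chosen with earlier results of these data known. Named genes are the 10 higher and 10 lower with the largest change (no overlap, mean of at least 20 CPM in the higher group, no predicted symbol), the 3 passing members with the smallest p of each of 26 lists (at least 5 CPM) and 13 anchors, 93 in all. A further 116 were picked with their values in view. A few named genes are not reported here. Folds against 0 counts are bounds at a floor of 3 counts over the group, and ratios with 1 to 3 counts have exact 95% binomial intervals. Both cover counting error only: whether reads were collapsed to molecules before counting is not given in the sources used here, and reads of 1 molecule are not independent. Promoters and gene coordinates are RefSeq's for GRCm38.p6, of which mm10 is the browser name, and 23204 of 24421 symbols matched (24313 with synonyms).

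Replicate numbers paired the baseline groups by the rule used here: same-numbered libraries deviated together, with correlations of 0.11, 0.20, 0.18 and 0.22 over 11430 genes, and 3 of 4 best with their own number. This comes from the data, since the labels do not say what a number marks. At the early and advanced stages correlations ran from -0.09 to 0.09. The test was also run on simulated counts of the baseline comparison (11268 genes, 200 changed). It found 35.8% of the genes set to a fold of 1.5, 62.7% at a fold of 2 and 84.8% at a fold of 4. Of its 130 calls 6.15% were false. Far fewer genes were changed there than the 6770 of 11430 called in the data. The adjusted p depends on that share, so these rates do not describe the baseline test. Other settings tried were DESeq2 1.42.0, no filter, RLE size factors, limma-voom (limma 3.58.1) with quality weights, a replicate block, thinning to the shallowest library, no Rn45s, a fit of 24 libraries and each library left out. Leaving out library 4 of both groups or the 2 early peritoneal libraries that stood apart was chosen after seeing the data.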

Additional observations from a re-analysis of the deposited data

Results flagged for a closer look

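In 325 groups of 4 libraries (genes named here with a mean of at least 5 CPM, and Rn45s), 27 had a library whose gap to the nearest other was too large a part of the group's range by Dixon's test. Chance flags about 1 group in 20. In monocyte library 1 it held for Ptgs1 at 10.8 CPM. In monocyte library 3 it held for Pparg at 29.9 CPM. In monocyte library 4 it held for Fcgrt at 35.7 CPM, Itgam at 1023 CPM, F10 at 135 CPM, Chil3 at 5116 CPM, Irf7 at 168 CPM, Klf4 at 354 CPM, Gapdh at 276 CPM, C5ar1 at 130.1 CPM and Cysltr1 at 28.6 CPM. In peritoneal library 1 it held for Tbxas1 at 122 CPM and Abcg1 at 86.4 CPM. In peritoneal library 3 it held for Tlr4 at 179.5 CPM, Ccr2 at 7.81 CPM and Ifit1 at 10.6 CPM. In peritoneal library 4 it held for Adgre1 at 1715 CPM, S100a6 at 25.0 CPM, Fcgr3 at 656 CPM, Fcgr1 at 19.9 CPM, Itga6 at 3438 CPM, Chil3 at 69.5 CPM, Lyz1 at 469.5 CPM, Fabp4 at 339 CPM, Coro1a at 10.2 CPM and Cysltr1 at 111 CPM. The Rn45s share of peritoneal library 4, 17.5%, was flagged too. The report gives the values of all 4 libraries for some of these genes and not for others, such as S100a6, Pparg and Cysltr1. None of the genes changed its call without library 4 of both groups.

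For 38 of the genes named here the difference between the populations was itself different at the early stage from baseline, by the interaction test of 1 fit of 24 libraries. The change in log2 fold change was positive for Ly6c2 (3.60), Cx3cr1 (5.33), Ear2 (8.18), Gpr141 (2.91), Ms4a4c (3.44), S100a6 (2.12), Itgal (2.86), Ace (3.07) and Nr4a1 (2.83). It was also positive for Acvrl1 (3.94), Flt3 (4.28), Il10ra (0.67), Itgb5 (3.11), Tlr9 (3.35), Ccr2 (6.18), H2-DMb1 (2.41), Ciita (3.60) and Pfkfb4 (1.43). A positive change was likewise found for Ptgs2 (6.13), Hpgd (3.89), Plac8 (2.31), Lyz1 (2.10), Ifngr1 (1.05), Cd74 (3.77), Coro1a (2.98), Gsn (4.47) and Pstpip1 (2.56). The remaining positive values were those of Il1b (5.58), Mefv (4.59), Clec12a (2.75), Itgax (4.94), Spn (2.22), Ltb4r1 (5.81), H2-Ab1 (3.85) and Csf2ra (1.07). Negative changes were found for S1pr1 (-1.83), Mcm6 (-1.75) and Ptgs1 (-1.83). Ear2 had 1 count in the baseline peritoneum, so its value depends on the fit and is no bound. The 2 early peritoneal libraries that stood apart enter these values, and without them 12 genes in all passed.

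At the advanced stage the difference had changed from baseline for 9 of the genes named here. The change was positive for Il10ra (0.91) and Cxcr4 (1.93) and negative for Mcm6 (-1.91), Mcm3 (-1.81), Mcm2 (-2.07), Ptgs1 (-2.02), Tyms (-3.57), Top2a (-4.00) and Mki67 (-3.48).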

How the results depend on the processing

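The baseline count of 6770 genes ran from 5601 (fit of 24 libraries) to 7602 (limma-voom) over the settings tried, and the 2-fold count of 2294 from 1884 (fit of 24 libraries) to 2634 (no filter). With the replicate block 6935 and 2340 genes were called; the block changed the call of none of the 209 named genes, and of the list counts it moved only the B cell markers by over 1.5 times, from 0 to 2 higher and from 0 to 1 lower. The 209 named genes gave 3552 values, of which 3546 kept their direction and side of the threshold, 5 lost the call (all Top2a), 1 gained it (Apoe in limma-voom) and 0 reversed. Leaving libraries out moved 30 of 185 genes by over 1.5-fold. Of 1394 list counts 57 moved by over 1.5 times, among them the chemokine receptors lower (6, or 10 to 11), the cell division genes higher (7, or 11 to 12) and the mast cell and basophil markers higher (0, or 4).

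Leaving out 1 library gave 6267 to 7198 genes at baseline, 2228 to 2547 by the 2-fold rule, 2161 to 3116 at the early stage and 4438 to 4824 at the advanced stage. The difference in total counts, -0.15 M, ranged from -1.12 to 0.92 M, reversing without monocyte library 1 (0.00987), monocyte library 3 (0.920), peritoneal library 2 (0.563) or peritoneal library 3 (0.243), and that in Rn45s ranged from 1.10 to 3.80 percentage points.

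The counts of changed differences were the least stable. For early against baseline 288 became 519 in DESeq2, 66 in limma-voom, 38 with thinned counts, 12 without the 2 early peritoneal libraries that stood apart, and 49 to 526 with 1 library left out. It moved by over 1.5 times without early peritoneal library 2 (49), 3 (468) or 4 (526), early monocyte library 1 (190), 2 (126) or 4 (170), baseline monocyte library 2 (157), or baseline peritoneal library 2 (178), 3 (155) or 4 (170). For advanced against baseline 238 became 416, 503, 89 and 467 under the same 4 settings, and 69 to 318 with 1 library left out. It moved by over 1.5 times without advanced monocyte library 3 (69), advanced peritoneal library 1 (119), 2 (123), 3 (142) or 4 (145), baseline monocyte library 2 (123), or baseline peritoneal library 3 (142) or 4 (110). Thinning removes reads and tested genes; the other causes were not tested. The fed groups hold 0.943 to 2.56 M counts a library, and 1656 of the 2294 genes could be tested at the early stage and 1609 at the advanced stage.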

Other observations

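The genes given here lie outside the gene lists and were chosen one by one after their values were seen, so they stand for no pathway. The endothelin receptor gene Ednrb had 1.00, 0.698, 0.737 and 0.389 CPM in monocytes and 2836, 2935, 2773 and 2893 CPM in the peritoneum (log2 fold change 11.93 ± 0.18, adjusted p = 4.49e-11, edgeR). Occludin, Ocln, a tight junction protein gene, had 0 counts in monocytes and 53.8, 48.6, 47.9 and 53.4 CPM (at least 847-fold higher), and the junctional adhesion gene Jam2 was higher by a log2 fold change of 9.46 ± 0.38, and 11.34 without monocyte library 2. Fgfr1, a fibroblast growth factor receptor gene, had 2.69, 2.19, 3.38 and 0 CPM and 763, 859.7, 864 and 844 CPM (log2 fold change 8.56 ± 0.45, adjusted p = 5.70e-08). The Wnt receptor gene Fzd1 was higher with a log2 fold change of 5.76 ± 0.19, and the ligand gene Bmp2 with one of 6.81 ± 0.52, and 7.89 without monocyte library 2. Lyve1, the hyaluronan receptor of lymphatic endothelium and some resident macrophages, averaged 0.0441 ± 0.0518 CPM in monocytes and 146 ± 66.5 CPM in the peritoneum. Arg1, arginase 1, had 0.308, 0, 0 and 0 CPM and 178, 124, 169 and 264 CPM (log2 fold change 10.97 ± 0.48, and 14.02 without monocyte library 1, adjusted p = 1.66e-08). The summed endothelial, mesothelial and fibroblast markers reached at most 2.43, 0.355 and 0.347 CPM in a peritoneal library, against at most 14.7, 0.430 and 0.614 CPM in a monocyte library. The part of such cells in the genes of this paragraph was not tested.

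Other genes chosen in the same way were lower. Coro1a, which encodes the leukocyte actin regulator coronin 1A, had 946, 957, 829 and 1096 CPM in monocytes and 13.5, 13.2, 13.1 and 10.2 CPM in the peritoneum (log2 fold change -6.26 ± 0.14, adjusted p = 3.81e-10), and gelsolin, Gsn, was 80.1-fold higher in monocytes. Mefv, which encodes pyrin, had 103, 118, 119.6 and 89.9 CPM and 0.355, 0.116, 0.301 and 0.239 CPM (log2 fold change -8.64 ± 0.20, adjusted p = 3.87e-10), and its partner gene Pstpip1 was 24.1-fold higher in monocytes. Il1b had 29.5, 45.1, 43.9 and 49.5 CPM and 0.444, 0.347, 0.401 and 0 CPM (log2 fold change -7.15 ± 0.38, adjusted p = 6.25e-08). The inhibitory lectin gene Clec12a was 47.8-fold higher in monocytes. The summed neutrophil markers, whose cells also express Il1b, Mefv and Clec12a, were 223 to 656 CPM in monocyte libraries and 1.35 to 5.09 CPM in the peritoneum, and their part was not tested.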
